A study of Pyronema omphalodes CBS 100304 with 9 samples.

Results

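Protoapothecia, the young fruiting bodies of the ascomycete Pyronema omphalodes (also called Pyronema confluens), were compared with the sexually developing mycelium by RNA sequencing. The comparison took every gene with at least 10 counts in at least 2 of the 5 libraries of these groups, which gave 11674 of the 13369 gene models. Protoapothecia A, B and C were 3 independent biological replicates. The slides they grew on held 150 µl of WPC medium, set with agar at 0.8%, and were kept at 25 °C for 4 d. Cold ethanol fixed the tissue, protoapothecia were cut out by laser microdissection, and their RNA was amplified linearly. Sexual mycelium 1 and 2 came from an earlier study, in which the fungus grew as a surface culture in WPC medium under constant light and RNA from days 3, 4 and 5 was pooled after bulk extraction. Each sexual mycelium library is labelled as a technical replicate, so the spread between them may be technical, and p-values then rest partly on that spread. No strain difference, allele or treatment separates the groups in the labels, and the light condition of the slides is not stated. Dissection, fixation and amplification were applied to protoapothecia alone, so preparation and tissue cannot be told apart. The series also holds 2 libraries of vegetative mycelium and 2 of a vegetative pool, which entered the estimate of spread.

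Apothecia are open, cup-shaped or disc-shaped fruiting bodies that carry the spore sacs on their upper surface. In Pyronema they form when female and male organs fuse, after which sterile hyphae wrap the fertile tissue and differentiate into the protoapothecium. The sexual mycelium compared here was not the mycelium around the dissected structures. It was a separate whole culture pooled over days 3, 4 and 5, a span that includes the 4 d of the slides. That culture may hold sexual structures of several stages, protoapothecia among them, and their share was not tested. The comparison thus sets a dissected structure against a bulk culture that may contain it.

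Library totals were 24494613, 5583951 and 24803660 counts in protoapothecia A, B and C, against 17221767 and 22132904 in sexual mycelium 1 and 2. Levels below are CPM, the usual scaling of counts to library size, here with TMM factors, and levels per kb are CPM divided by the length of the mRNA model. Log2 CPM correlated across genes at 0.939 to 0.959 among protoapothecia and at 0.978 between sexual mycelium libraries, and at 0.707 to 0.740 between the groups, as a description in which genes are not independent. Genes described by the words mating-type or pheromone receptor had 2 members higher and 2 lower of 7. Their summed level was 433 to 586 CPM in protoapothecia against 729 and 527 CPM in sexual mycelium. The words also matched the mating-type switching proteins swi10 PCON_01708 (higher) and swi5 PCON_13245 (lower). The pheromone receptor transcription factor PCON_08725 was lower, at 184, 138 and 176 CPM in protoapothecia against 395 and 286 CPM in sexual mycelium. Among the mating-type proteins and receptors themselves, the alpha factor receptor PCON_02097 was higher (log2 fold change 3.62) and none was lower. Both mating-type proteins were present in every library, MAT1-1-1 PCON_07491 at 194, 122 and 103 CPM in protoapothecia against 119 and 90.6 CPM in sexual mycelium. Markers of hyphae, which are Woronin body, septin and clock-controlled proteins, summed to 1944 to 2830 CPM in protoapothecia against 2740 and 2627 CPM in sexual mycelium (2 higher and 3 lower of 8). Named genes of asexual sporulation summed to 1212 to 1374 CPM in protoapothecia against 130.6 and 175.4 CPM in sexual mycelium, with 1 higher and 3 lower of 6, and the regulator wetA PCON_02676 made up 1153 to 1245 CPM of the protoapothecium sums. Heat shock proteins and their co-chaperones summed to 1785 to 2736 CPM in protoapothecia against 11269 and 11639 CPM in sexual mycelium, with 3 higher and 13 lower of 18. The highest in sexual mycelium were PCON_06550 at 3666 and 3954 CPM, PCON_11855 at 3148 and 3449 CPM and PCON_04474 at 2461 and 2173 CPM. The co-chaperone cns1 PCON_11417 was 1 of the 3 higher. The part of these differences in the results below was not tested.

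Most genes differed between the tissues. Of 11551 members tested, 3142 (27.2%) were higher and 4021 (34.8%) lower in protoapothecia, so 62% passed edgeR's quasi-likelihood test at a Benjamini-Hochberg adjusted p below 0.05. A stricter test against a fold of 2 called 1978 (17.1%) higher and 2830 (24.5%) lower. Every protoapothecium library lay above both sexual mycelium libraries for 3693 members (32%), and below both for 4794 (41.5%). The remaining 123 members of the 11674 did not pass the filter of the fit. The median log2 fold change of all 11787 genes tested was −0.14 with TMM scaling, against 0.03 with RLE scaling, and the medians of gene lists below are given relative to the −0.11 of the members tested. In bulk samples of this kind, fewer cells of a type and less RNA per cell cannot be told apart.

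The genes called higher in protoapothecia took most of their transcript pool. They held 71.6, 74.9 and 69.8% of the counts in protoapothecia A, B and C, against 20.7 and 20.2% in sexual mycelium 1 and 2. Genes called lower held 8.72, 8.33 and 8.84% of the protoapothecium counts against 51.2 and 52.3% of those of sexual mycelium. The pool was also narrower in protoapothecia, where the most abundant 345, 273 and 372 genes made up 50% of the counts in A, B and C, against 742 and 766 genes in sexual mycelium 1 and 2. Genes without a described product took 39.6, 38.7 and 40% of protoapothecium counts against 29.9 and 29.8% in sexual mycelium.

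Set against all 4 groups of the series, most genes called higher peaked in the fruiting body. Of the 3142, 2883 (91.8%) had their highest group mean in protoapothecia, and 2542 (80.9%) were above all 6 mycelium libraries in every protoapothecium library. Among the 4021 called lower, 3383 (84.1%) had their lowest group mean in protoapothecia and 1661 (41.3%) had their highest in sexual mycelium. Over all members tested, 38.5% had their highest mean in protoapothecia, 24.8% were above all 6 mycelium libraries, 39% had their lowest mean in protoapothecia and 22.7% had their highest in sexual mycelium. These counts use the libraries that made the calls and are a description.

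Some genes were counted in 1 of the groups alone. There were 36 members with no count in any protoapothecium library and at least 10 in both sexual mycelium libraries. The other way round there were 0, where the rule asks for at least 10 counts in all 3 protoapothecium libraries, including the shallower B. With no minimum in each library, 3 of the members tested had no count in sexual mycelium and were called higher, and 35 had none in protoapothecia and were called lower. One of the 3, the undescribed PCON_01408, chosen after its values were seen, had 0.896, 0.642 and 0.494 CPM in protoapothecia against 0 and 0 CPM in sexual mycelium. The highest of the 36 was the undescribed PCON_11051, which was at 0 in protoapothecia against 17.2 ± 12.3 CPM in sexual mycelium (SD, n = 2) and was at least 258-fold lower, with the floor at 3 counts over the group. Ankyrin-3 PCON_11816, a protein with ankyrin repeats, was at least 65.8-fold lower by the same measure.

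The authors' own consensus calls went the same way in every gene that both called. Among members tested, the authors' deposited table calls 1858 higher and 3461 lower. The fit here called 1833 of the 1858 higher and 0 lower, and 3381 of the 3461 lower and 0 higher. Genes without a consensus call in the authors' deposited table added 1309 higher and 640 lower here.

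Fold changes moved with transcript length. Of 5 bins of members by length, the bin with the longest mRNA models (2307 to 19662 bases) had a median log2 fold change of −0.66, and 17.8% were higher and 48.2% lower in protoapothecia. The shortest bin (151 to 761 bases) had a median of 0.12, with 26.8% higher and 29.5% lower. With library offsets fitted to mRNA length, an alternative chosen after seeing the data, the longest bin had a median of 0.17 and the total became 3765 higher and 3560 lower. It shared 3116 higher and 3515 lower calls with the fit without those offsets, and 9 genes were called the opposite way. Counts with these offsets are given beside the gene lists described below. Over all 11787 genes tested, the offsets moved the calls from 3146 higher and 4071 lower to 3765 and 3560. Counts of a list with offsets are to be read against that balance, not against the 27.2% and 34.8% without them.

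**Figure D1:**
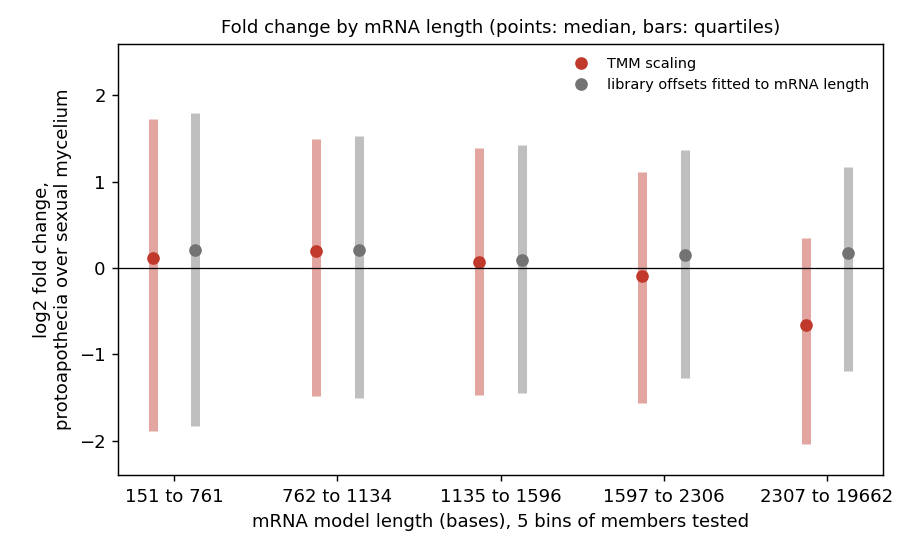
Log2 fold change of protoapothecia over sexual mycelium (y axis) in 5 bins of members by mRNA model length in bases (x axis), points for medians and bars for quartiles. With TMM scaling (red) the median falls to −0.66 in the longest bin, and with library offsets fitted to length (grey) it is 0.17 there.

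The shares called also differed by predicted location, beside 27.2% higher and 34.8% lower over all members tested. These shares were not computed with length offsets. Of 999 members that the authors' annotation predicts to be extracellular, 37.2% were higher and 26.1% lower in protoapothecia, and of 1171 predicted at the plasma membrane 35.7% were higher and 29.6% lower. Of 3932 predicted nuclear members 21.8% were higher and 39.1% lower.

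Per kb of transcript, genes without a described product led the protoapothecium pool. PCON_11755 had the highest level of all, at 15315 CPM per kb in protoapothecia against 736 CPM per kb in sexual mycelium, and its libraries read 13609, 10022 and 14596 CPM in protoapothecia against 384 and 840.4 CPM in sexual mycelium. PCON_07266 followed at 14127 CPM per kb in protoapothecia against 408 CPM per kb in sexual mycelium and PCON_07940 at 11997 CPM per kb in protoapothecia against 304 CPM per kb in sexual mycelium. Each of these 3 genes was higher in every protoapothecium library than in either sexual mycelium library (4.38, 5.11 and 5.30 on the log2 scale, adjusted p = 2.86e-05, 2.94e-05 and 3.6e-06). In sexual mycelium the leader was another undescribed gene, PCON_08550, at 277 CPM per kb in protoapothecia against 17225 CPM per kb in sexual mycelium, which fell by 5.96 on the log2 scale (adjusted p = 2.89e-05). The fucose-specific lectin PCON_04233, a protein that binds fucose-bearing sugars, was among the 10 leading genes of both groups, at 11379.7 CPM per kb in protoapothecia against 3574 CPM per kb in sexual mycelium (log2 fold change 1.67, adjusted p = 0.00193). A pair of elongation factor 1-alpha models, PCON_04930 and PCON_11298, stood at 769 CPM per kb in protoapothecia against 9241 CPM per kb in sexual mycelium and 935 CPM per kb in protoapothecia against 8869 CPM per kb in sexual mycelium and fell by 3.59 and 3.25. Their descriptions are the same, so how reads were divided between them is uncertain.

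Several of the largest differences lay in genes with no description, and their levels were high. PCON_14007 reached 2685, 3605 and 3220.2 CPM in protoapothecia A, B and C, against 23.3 and 23.5 CPM in sexual mycelium 1 and 2 (log2 fold change 7.08, SE 0.51, adjusted p = 6.89e-06). PCON_03096 reached 6619, 9909.6 and 6366 CPM in protoapothecia against 72.6 and 63 CPM in sexual mycelium (log2 fold change 6.81, SE 0.36, adjusted p = 3.6e-06), and PCON_07721 reached 11764, 11896 and 10019 CPM in protoapothecia against 135 and 119.6 CPM in sexual mycelium (log2 fold change 6.46, SE 0.56, adjusted p = 1.62e-05). In all 3 genes the lowest protoapothecium library lay far above the higher sexual mycelium library. A smaller transcript, PCON_09312, read 1470.4, 793 and 1112 CPM in protoapothecia against 8.3 and 4.69 CPM in sexual mycelium (log2 fold change 7.44, SE 0.59, adjusted p = 1.03e-05). Not every large fold was even across the replicates: PCON_12606 had 412, 116 and 3801 CPM in protoapothecia against 3.6 and 6.33 CPM in sexual mycelium (log2 fold change 8.18, SE 1.73, adjusted p = 0.00282), with C far above A and B, and PCON_07541 had 2.24, 3.42 and 238 CPM in protoapothecia against 0.432 and 0.337 CPM in sexual mycelium (log2 fold change 7.72, SE 2.24, adjusted p = 0.0143). Without C the value of PCON_07541 was 2.86, and it did not pass the test when either sexual mycelium library was left out. In the opposite direction PCON_03560 had 1 count over the protoapothecium libraries, or 0, 0 and 0.0494 CPM in protoapothecia against 112 and 64.4 CPM in sexual mycelium, and PCON_14301 also had 1 count, or 0, 0 and 0.0494 CPM in protoapothecia against 86 and 37.4 CPM in sexual mycelium. With so few counts no fold is given for them. PCON_07069 was detected in every protoapothecium library, at 0.0498, 1.07 and 0.198 CPM in protoapothecia against 319 and 147 CPM in sexual mycelium, and fell by 9.85 (adjusted p = 2.05e-05).

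Genes with a described product also had large rises. Agmatinase PCON_06951, which in other organisms splits agmatine into the polyamine putrescine and urea, had 213, 296 and 349 CPM in protoapothecia A, B and C, against 5.37 and 7.53 CPM in sexual mycelium 1 and 2 (log2 fold change 5.47, SE 0.33, adjusted p = 3.68e-06; scaffold 294, 261041 to 262899, minus strand). The adhesin PCON_06465, similar to a Metarhizium surface protein that binds insect cuticle, had 442, 637 and 378 CPM in protoapothecia against 15.2 and 11 CPM in sexual mycelium (log2 fold change 5.21, SE 0.35, adjusted p = 5.25e-06; scaffold 260, 108622 to 111152, minus strand). Both genes were tightly grouped within each tissue and the groups did not overlap. UPF0308 protein PCON_11110 and UPF0311 protein PCON_01555 reached 102, 154 and 115 CPM in protoapothecia against 1.34 and 2.55 CPM in sexual mycelium and 190.4, 173 and 150.4 CPM in protoapothecia against 2.35 and 3.52 CPM in sexual mycelium (5.97 and 5.86, adjusted p = 1.14e-05 and 1.43e-05). The COG complex subunit 2 PCON_05653, part of a tether of Golgi vesicles, had 741, 506 and 681 CPM in protoapothecia against 26.2 and 23.9 CPM in sexual mycelium (log2 fold change 4.68, SE 0.28, adjusted p = 3.68e-06). A microsomal glutathione S-transferase PCON_01201, of a family of detoxifying enzymes, had 1076, 1155 and 1678 CPM in protoapothecia against 38.1 and 62.7 CPM in sexual mycelium (4.69, adjusted p = 9.15e-06).

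Large falls among described genes included the following. Ngg1 PCON_05567, in yeast a subunit of a histone acetyltransferase complex, had 0.747, 0.642 and 0.544 CPM in protoapothecia A, B and C, against 61.2 and 63.2 CPM in sexual mycelium 1 and 2 (log2 fold change −6.58, SE 0.27, adjusted p = 2.23e-06; scaffold 217, 55003 to 57349, plus strand). Initiation factor 5 PCON_09275, which triggers GTP hydrolysis at the start codon, had 3.63, 3.42 and 2.37 CPM in protoapothecia against 252 and 273 CPM in sexual mycelium (log2 fold change −6.40, SE 0.25, adjusted p = 2.23e-06; scaffold 437, 14240 to 16345, plus strand). The RNA helicase dhh1 PCON_07346, in yeast an activator of mRNA decapping, had 2.39, 1.28 and 2.08 CPM in protoapothecia against 143 and 134 CPM in sexual mycelium (log2 fold change −6.09, SE 0.27, adjusted p = 2.56e-06; scaffold 321, 55 to 2639, minus strand). In each of them all 3 protoapothecium libraries were below 4 CPM and close together. Thiamine thiazole synthase PCON_08605, which makes a ring of vitamin B1, had 13.6, 22 and 21.9 CPM in protoapothecia against 852 and 2203 CPM in sexual mycelium (log2 fold change −6.32, SE 0.45, adjusted p = 6.89e-06), and the pair of sexual mycelium libraries differed between themselves. The AMSH-like protease sst2 PCON_14342, a deubiquitinating enzyme of endosomes in fission yeast, had 10 counts over the 3 protoapothecium libraries, or 0.299, 0.214 and 0.148 CPM in protoapothecia against 26.9 and 24.5 CPM in sexual mycelium, and fell by 6.81 (adjusted p = 3.63e-06). Rds1 PCON_08972 had 2 counts over them, or 0, 0.214 and 0.0494 CPM in protoapothecia against 12.8 and 56.8 CPM in sexual mycelium.

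**Figure D2:**
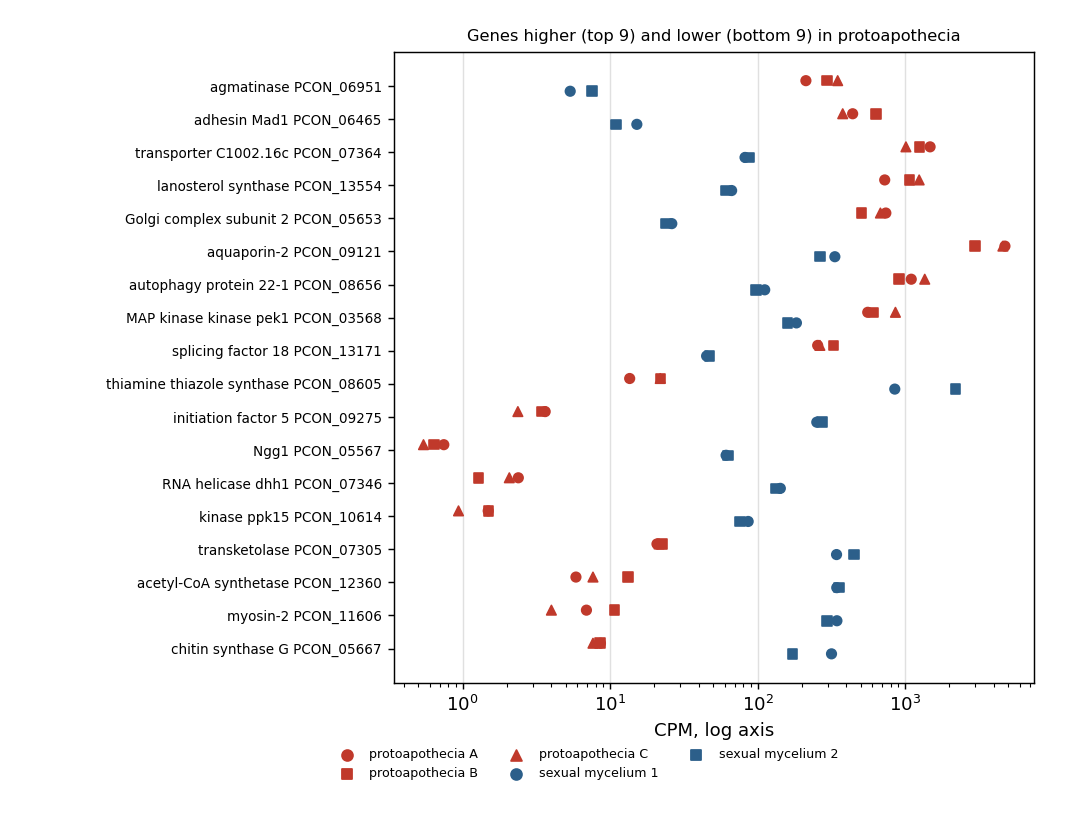
CPM (x axis, log scale) of 18 genes named in the text in each library, protoapothecia in red above sexual mycelium in blue, with symbols for replicates. The upper 9 genes are higher in every protoapothecium library and the lower 9 are lower in every one, for example agmatinase at 213 to 349 against 5.37 and 7.53 CPM.

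Transcription factors, which bind DNA and set which genes are read, were more often lower than higher. Of 61 members with a zinc cluster domain, the large fungal family of Gal4 type, 6 were higher and 33 lower (median −0.92), or 16 and 26 with length offsets. C2H2 zinc finger genes had 2 higher and 20 lower of 36, or 7 and 17 with length offsets (median −0.89). NRG1 PCON_12691, a repressor in yeast, fell to 2.04, 0.642 and 2.87 CPM in protoapothecia against 76.1 and 84.5 CPM in sexual mycelium (log2 fold change −5.28, adjusted p = 7.29e-06). Nit-4 PCON_07844, the Neurospora activator of nitrate assimilation, fell to 8.46, 7.49 and 9.54 CPM in protoapothecia against 69.6 and 69.6 CPM in sexual mycelium (−3.02, adjusted p = 6.03e-06). Against that direction, CRZ1 PCON_09757, in yeast the factor switched on by calcineurin, rose to 749, 634 and 742 CPM in protoapothecia against 174 and 178 CPM in sexual mycelium (2.01, adjusted p = 9.58e-05).

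HMG box proteins, which bend DNA, had no member lower. Of 8 members 4 were higher (median 1.16; 5 and 0 with length offsets), led by non-histone chromosomal protein 6 PCON_12221 at 2186, 1281 and 2513 CPM in protoapothecia against 762 and 591 CPM in sexual mycelium (1.56, adjusted p = 0.00219). The bZIP family had 3 higher and 5 lower of 13, or 6 and 2 with length offsets. HacA PCON_13591, the regulator of the unfolded protein response, rose to 2179, 2285 and 3728 CPM in protoapothecia against 791 and 543 CPM in sexual mycelium (2.03, adjusted p = 0.000581). Cross-pathway control protein A PCON_02626, the activator of amino acid synthesis under starvation, fell to 129.5, 235 and 122 CPM in protoapothecia against 1198 and 1876 CPM in sexual mycelium (−3.25, adjusted p = 5.57e-05). NDT80 PCON_08807, in yeast the factor that commits cells to meiosis, read 1332, 929.7 and 1796 CPM in protoapothecia against 385 and 408 CPM in sexual mycelium (1.77, adjusted p = 0.0011). For NDT80, hacA and CRZ1 every protoapothecium library was above both mycelium libraries.

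Protein kinases, the enzymes that phosphorylate other proteins, had 16 higher and 49 lower of 106 (median −0.54), and 59 of them fall in the longest bin of transcripts. With length offsets the split was 30 and 39. The MAP kinase kinase pek1 PCON_03568, of the cell integrity pathway in fission yeast, rose to 559, 611 and 861 CPM in protoapothecia against 184 and 159 CPM in sexual mycelium (log2 fold change 1.98, SE 0.25, adjusted p = 0.000137). Ppk15 PCON_10614, named after a fission yeast kinase, had 1.49, 1.5 and 0.94 CPM in protoapothecia against 86.4 and 76.3 CPM in sexual mycelium (log2 fold change −5.99, SE 0.27, adjusted p = 2.94e-06). The p21-activated kinase pakA PCON_11179 had 3.78, 2.57 and 1.93 CPM in protoapothecia against 75.1 and 71.7 CPM in sexual mycelium (−4.71, adjusted p = 4.56e-06). Calcium and two-component signalling had 1 higher and 16 lower of 23, reduced to 3 and 8 with length offsets. Its calcium channel cch1 PCON_02637, which admits calcium across the plasma membrane, fell by 2.48, and by 1.13 with length offsets. Phosphatases had 16 higher and 20 lower of 45, or 17 and 15 with length offsets. CDC14 PCON_10852, which in yeast ends mitosis, fell to 4.53, 4.28 and 2.52 CPM in protoapothecia against 70.6 and 61.4 CPM in sexual mycelium (−4.15, adjusted p = 5.45e-06).

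Small GTPases and their regulators went both ways (11 higher, 22 lower of 57; 18 and 19 with length offsets). The Rab protein RABB1b PCON_06784, a regulator of vesicle traffic, rose by 3.22 on the log2 scale (adjusted p = 8.17e-06).

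Chromatin modifiers had 15 higher and 27 lower of 70 (median −0.09), with length offsets 21 and 20. A pair of subunits of a chromatin structure-remodelling complex, PCON_05029 and PCON_04181, rose by 2.48 and 2.37 on the log2 scale (adjusted p = 1.07e-05 and 7.94e-05). The enhancer of polycomb-like protein 1 PCON_11695, in yeast a subunit of a histone acetyltransferase, had 2.14, 3.42 and 2.08 CPM in protoapothecia against 69.3 and 57.9 CPM in sexual mycelium (−4.72, adjusted p = 3.6e-06). Histone demethylase 1A PCON_08262 fell by 3.64 (adjusted p = 3.6e-06).

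Splicing genes, whose products remove introns, were more often higher than lower. Of 75 members 31 rose and 10 fell (median 0.43), with length offsets 40 and 8. The list took 0.670, 0.758 and 0.606% of all counts in protoapothecia against 0.653 and 0.627% in sexual mycelium. Splicing factor 18 PCON_13171 read 256, 329 and 265 CPM in protoapothecia against 45.2 and 47.4 CPM in sexual mycelium (log2 fold change 2.61, SE 0.22, adjusted p = 1.27e-05), syf2 PCON_11894 301, 323 and 245 CPM in protoapothecia against 41.3 and 52.8 CPM in sexual mycelium (2.62, adjusted p = 2.02e-05) and cef1 PCON_02144 500.0, 547 and 431 CPM in protoapothecia against 106 and 100.5 CPM in sexual mycelium (2.26, adjusted p = 2.09e-05). In these 3 genes the groups did not overlap. The genes of mRNA decay and export had 10 higher and 13 lower of 39, near the 27.2% and 34.8% of all members tested (17 and 6 with length offsets). The deadenylase subunit PCON_03237 of the CCR4-NOT complex, which shortens poly(A) tails, rose to 570.1, 364 and 555 CPM in protoapothecia against 119 and 109 CPM in sexual mycelium (2.13, adjusted p = 9.25e-05). The decapping enzyme subunit 2 PCON_07843 fell to 4.28, 1.5 and 3.41 CPM in protoapothecia against 48.1 and 55.3 CPM in sexual mycelium (−3.99, adjusted p = 1.57e-05).

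Translation genes were mostly lower. Of 53 translation factors 3 were higher and 32 lower (median −0.88), with length offsets 5 and 29. Of 35 tRNA synthetases, which load tRNAs with amino acids, 3 were higher and 26 lower (median −1.32), with length offsets 3 and 22. The cytoplasmic leucine tRNA ligase PCON_12053 had 27.7, 26.3 and 18.8 CPM in protoapothecia against 201 and 215 CPM in sexual mycelium (log2 fold change −3.10, SE 0.23, adjusted p = 7.21e-06) and the glutamine tRNA ligase PCON_03650 30.6, 29.3 and 47.2 CPM in protoapothecia against 371 and 360.4 CPM in sexual mycelium (log2 fold change −3.35, SE 0.25, adjusted p = 8.11e-06). A pair of mitochondrial enzymes went the other way: the leucine ligase PCON_06163 had 47.4, 63.1 and 39.5 CPM in protoapothecia against 28.5 and 23.2 CPM in sexual mycelium (0.95, adjusted p = 0.0113) and the methionine ligase PCON_09870 38.7, 27.2 and 44.6 CPM in protoapothecia against 17.9 and 15.7 CPM in sexual mycelium (1.14, adjusted p = 0.00647). Neither passed the test without sexual mycelium 2, at 0.81 and 1.05, and the leucine ligase stood at 1.68 with length offsets. Elongation factor 1-gamma PCON_08025 had the largest log2 fold change of the translation factors tested, at 4788, 3663 and 3512 CPM in protoapothecia against 1074 and 1372 CPM in sexual mycelium (1.71, adjusted p = 0.00183). RNA helicases had 7 higher and 20 lower of 40, against 13 and 13 with length offsets. The mitochondrial helicase MRH4 PCON_01934 rose to 483, 406 and 159 CPM in protoapothecia against 20.3 and 25.3 CPM in sexual mycelium (3.94, adjusted p = 9.78e-05).

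**Figure D3:**
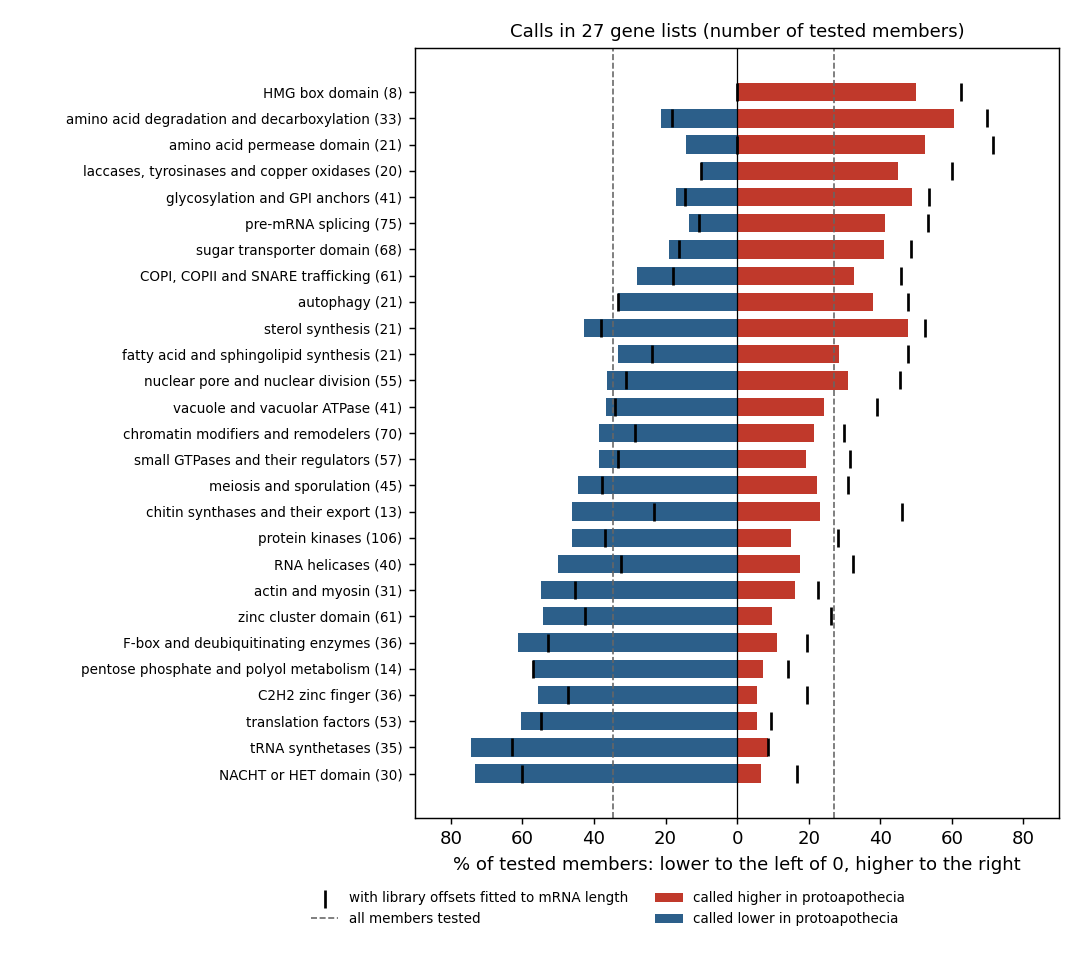
Percent of tested members called higher (red, right of 0) and lower (blue, left of 0) in protoapothecia for 27 gene lists, with the number tested in parentheses, dashed lines for all members tested (27.2% and 34.8%) and black ticks for library offsets fitted to mRNA length. Amino acid degradation, amino acid permeases and glycosylation stand past the dashed line on the right, and tRNA synthetases and translation factors past the one on the left. The dashed lines are shares without length offsets.

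The secretory route was higher at its sugar-adding steps. Of 41 genes of glycosylation and GPI anchors 20 rose and 7 fell (median 0.77), with length offsets 22 and 6. The mannosyltransferase KTR2 PCON_13009, which extends mannose chains in the Golgi, had 416, 312 and 371 CPM in protoapothecia against 31.6 and 39.7 CPM in sexual mycelium (log2 fold change 3.36, SE 0.24, adjusted p = 6.6e-06), and a small subunit of the oligosaccharyltransferase PCON_10462, which puts the sugar chain on new proteins, had 268, 341 and 297 CPM in protoapothecia against 38.9 and 34.4 CPM in sexual mycelium (log2 fold change 3.04, SE 0.25, adjusted p = 1.13e-05). Within the same list GAA1 PCON_07774, of the enzyme that attaches GPI anchors, fell to 1.1, 1.28 and 1.34 CPM in protoapothecia against 32.1 and 26.1 CPM in sexual mycelium (log2 fold change −4.56, SE 0.28, adjusted p = 3.7e-06). The difference between the groups was many times the spread inside them for all 3.

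Vesicle traffic divided by gene. COPI, COPII and SNARE genes had 20 higher and 17 lower of 61 (28 and 11 with length offsets). ERV14 PCON_08448, a receptor that loads cargo at the endoplasmic reticulum, rose to 549, 613 and 648 CPM in protoapothecia against 54.1 and 42.1 CPM in sexual mycelium (3.65, adjusted p = 5.6e-06). Sec16 PCON_06156, which organises exit sites there, fell to 9.31, 11.5 and 6.43 CPM in protoapothecia against 171 and 133 CPM in sexual mycelium (−4.09, adjusted p = 5.95e-06). Endosome and vacuolar sorting genes had 12 higher and 26 lower of 55 (19 and 22 with length offsets). The retromer subunit Vps35 PCON_13015, which returns receptors from endosomes, had 3.73, 2.99 and 2.52 CPM in protoapothecia against 93.6 and 76.9 CPM in sexual mycelium (−4.78, adjusted p = 3.6e-06). Of 12 exocyst and polarity genes, 1 was higher and 7 lower (2 and 4 with length offsets).

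Autophagy, the delivery of cell material to the vacuole, had 8 members higher and 7 lower of 21 (10 and 7 with length offsets). Atg22-1 PCON_08656, in yeast an exporter of amino acids from the vacuole, rose to 1102, 911 and 1361 CPM in protoapothecia against 112 and 97.8 CPM in sexual mycelium (log2 fold change 3.42, SE 0.27, adjusted p = 9.1e-06), and the vacuolar lipase ATG15 PCON_02398 rose by 1.60 (adjusted p = 0.000126). The protease atg4 PCON_03094, which processes the autophagosome protein Atg8, had 4.33, 5.56 and 4.01 CPM in protoapothecia against 77.4 and 88.8 CPM in sexual mycelium (log2 fold change −4.19, SE 0.23, adjusted p = 3.6e-06). Atg2 PCON_04554 fell by 5.19 (adjusted p = 4.55e-06). Subunits of the vacuolar proton pump also parted: the 16 kDa proteolipid subunit PCON_04106 rose to 3201, 2972 and 2817 CPM in protoapothecia against 429 and 298 CPM in sexual mycelium (log2 fold change 3.04, SE 0.27, adjusted p = 1.92e-05). Subunit B PCON_11361 fell to 40.8, 28.4 and 37.2 CPM in protoapothecia against 250.3 and 252 CPM in sexual mycelium (log2 fold change −2.82, SE 0.21, adjusted p = 7.67e-06). Among 9 genes of metacaspases and cell death, 2 were higher and 4 lower (3 and 4 with length offsets), with an apoptosis-inducing factor 2 PCON_03663 at 277, 499 and 356 CPM in protoapothecia against 16.4 and 21.8 CPM in sexual mycelium (4.30, adjusted p = 8.97e-06). F-box and deubiquitinating enzymes, which choose proteins for destruction or spare them, had 4 higher and 22 lower of 36 (median −1.29), with length offsets 7 and 19.

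Genes of amino acid breakdown and uptake were more often higher than lower in protoapothecia. Of 33 degradation and decarboxylation genes 20 rose and 7 fell (median 1.31), with length offsets 23 and 6. They took 3.86, 3.83 and 3.01% of the counts in protoapothecia A, B and C against 1.04 and 0.85% in sexual mycelium 1 and 2. Their most abundant member, the L-tyrosine decarboxylase PCON_12394, had 37285, 35833 and 27432 CPM in protoapothecia against 4981 and 3955 CPM in sexual mycelium. It made up 79.3, 78.2 and 74.3% of the list's counts in protoapothecia against 58.2 and 55.9% in sexual mycelium. Without it the list took 0.80, 0.83 and 0.77% of all counts in protoapothecia against 0.43 and 0.38% in sexual mycelium. L-amino-acid oxidase PCON_06684, which removes the amino group, had 25.8, 24.8 and 31.6 CPM in protoapothecia against 1.73 and 2.02 CPM in sexual mycelium (log2 fold change 3.86, SE 0.43, adjusted p = 7.21e-05). Tyrosine decarboxylase 1 PCON_07916 had 220.1, 212 and 224 CPM in protoapothecia against 54.7 and 50.3 CPM in sexual mycelium (log2 fold change 2.06, SE 0.19, adjusted p = 2.35e-05). Tyrosine decarboxylase 2 PCON_08688 went the other way, at 39.8, 24.8 and 28.4 CPM in protoapothecia against 379.6 and 196 CPM in sexual mycelium (log2 fold change −3.21, SE 0.31, adjusted p = 3.12e-05). Ornithine decarboxylase PCON_13830, which starts polyamine synthesis, was also lower, at 17.4, 19.5 and 12.5 CPM in protoapothecia against 75.2 and 80.3 CPM in sexual mycelium (−2.25, adjusted p = 3.18e-05). Amino acid synthesis had 9 higher and 16 lower of 38 (10 and 14 with length offsets), with cystathionine gamma-synthase PCON_13675, a methionine pathway enzyme, at 457, 473 and 429 CPM in protoapothecia against 58 and 48.7 CPM in sexual mycelium (3.09, adjusted p = 2.13e-05).

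Of 21 members with an amino acid permease domain, 11 rose and 3 fell (median 1.49), and with length offsets 15 rose and 0 fell. A list of amino acid and peptide permeases taken from the descriptions had 10 higher and 7 lower of 24 (median 0.80; 15 and 5 with length offsets). The polyamine transporter TPO5 PCON_13401 had 853, 1149.6 and 1183 CPM in protoapothecia against 103 and 68.4 CPM in sexual mycelium (log2 fold change 3.63, SE 0.29, adjusted p = 1.18e-05) and the permease AGP2 PCON_02250 244, 179.9 and 238 CPM in protoapothecia against 20.05 and 25.2 CPM in sexual mycelium (log2 fold change 3.29, SE 0.30, adjusted p = 2.09e-05). Sugar transporter domains had 28 higher and 13 lower of 68 (33 and 11 with length offsets), and sugar transporters listed by description had 9 higher and 9 lower of 30 (12 and 8 with length offsets). A glucose transporter PCON_11368 rose to 105, 191 and 108 CPM in protoapothecia against 6.19 and 5.96 CPM in sexual mycelium (log2 fold change 4.46, SE 0.35, adjusted p = 9.36e-06). Rco-3 PCON_03384, a glucose transporter gene that in Neurospora affects conidiation, fell to 353, 312 and 189 CPM in protoapothecia against 1114 and 931 CPM in sexual mycelium (log2 fold change −1.85, SE 0.29, adjusted p = 0.000475). The uncharacterised transporter PCON_07364 reached 1479, 1253 and 1014 CPM in protoapothecia against 82.3 and 87.8 CPM in sexual mycelium (3.88, adjusted p = 9e-06). Aquaporin-2 PCON_09121, a water channel, rose to 4758, 2990.4 and 4607 CPM in protoapothecia against 334 and 264 CPM in sexual mycelium (log2 fold change 3.78, SE 0.31, adjusted p = 1.23e-05), with every protoapothecium library at several times the mycelium values. ABC transporter domains had 2 higher and 14 lower of 32, or 12 and 8 with length offsets. One of the higher ones was mam1 PCON_02811, in fission yeast the exporter of a mating pheromone, at 118, 112 and 78.9 CPM in protoapothecia against 9.26 and 9.45 CPM in sexual mycelium (log2 fold change 3.46, SE 0.33, adjusted p = 2.6e-05).

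Genes of carbon stores and of the pentose phosphate route were more often lower. Of 12 trehalose, glycogen and storage genes 2 rose and 8 fell (median −1.67), with length offsets 3 and 5. Glycogen synthase PCON_05793 had 30.1, 21 and 87.8 CPM in protoapothecia against 616 and 736 CPM in sexual mycelium (log2 fold change −3.86, SE 0.52, adjusted p = 0.000209), with protoapothecia C above A and B, and the debranching enzyme PCON_06222, which opens branch points, had 47.1, 28.4 and 64.8 CPM in protoapothecia against 483 and 439.7 CPM in sexual mycelium (log2 fold change −3.29, SE 0.31, adjusted p = 2.57e-05). Trehalose phosphorylase PCON_03866 rose to 90.3, 47.1 and 164 CPM in protoapothecia against 13.2 and 21 CPM in sexual mycelium (log2 fold change 2.56, SE 0.52, adjusted p = 0.00223). Of 14 pentose phosphate and polyol genes 1 rose and 8 fell (2 and 8 with length offsets). Transketolase PCON_07305, which moves carbon units between sugars, had 20.8, 22.5 and 21.5 CPM in protoapothecia against 343 and 452 CPM in sexual mycelium (log2 fold change −4.21, SE 0.21, adjusted p = 3.6e-06). The pair of genes for 6-phosphogluconate dehydrogenase, the route's second oxidation step, went opposite ways: PCON_07351 had 162, 85.1 and 176 CPM in protoapothecia against 14.1 and 30.2 CPM in sexual mycelium (log2 fold change 2.67, SE 0.42, adjusted p = 0.000478) and PCON_11964 134, 200.4 and 168 CPM in protoapothecia against 768 and 836 CPM in sexual mycelium (log2 fold change −2.26, SE 0.23, adjusted p = 3.42e-05). Acetyl-CoA synthetase PCON_12360, which activates acetate, had 5.88, 13.3 and 7.66 CPM in protoapothecia against 345 and 357 CPM in sexual mycelium (log2 fold change −5.34, SE 0.33, adjusted p = 3.83e-06) in a list of 9 gluconeogenic and anaplerotic genes with 1 higher and 7 lower (1 and 5 with length offsets). The higher member without offsets was the malic enzyme PCON_09068, at 2.24, 2.14 and 64 CPM in protoapothecia A, B and C, whose call was lost without C.

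Sterol synthesis genes went both ways. Of 21 members 10 rose and 9 fell (11 and 8 with length offsets). Lanosterol synthase PCON_13554, which closes the sterol rings, had 728, 1073 and 1247 CPM in protoapothecia against 66.8 and 60.7 CPM in sexual mycelium (log2 fold change 3.99, SE 0.30, adjusted p = 7.97e-06). Squalene monooxygenase PCON_03325, the step before it, had 159, 279 and 202 CPM in protoapothecia against 35 and 30.4 CPM in sexual mycelium (log2 fold change 2.70, SE 0.30, adjusted p = 6.28e-05). Farnesyl pyrophosphate synthase PCON_09868 and hydroxymethylglutaryl-CoA synthase PCON_12558, which act earlier, fell by 1.70 and 1.49 (adjusted p = 0.000332 and 0.00019; −0.83 for the synthase of hydroxymethylglutaryl-CoA with length offsets), and sterol O-acyltransferase PCON_06460, which stores sterols as esters, fell by 2.91 (adjusted p = 6.89e-06). Among 21 fatty acid and sphingolipid genes (6 higher, 7 lower; 10 and 5 with length offsets), the sphingolipid reductase tsc10 PCON_08158 rose to 241, 357 and 248 CPM in protoapothecia against 34.1 and 24.9 CPM in sexual mycelium (3.26, adjusted p = 2.04e-05). The delta(12) fatty acid desaturase PCON_06932 fell to 22.1, 13.3 and 16.2 CPM in protoapothecia against 243 and 173 CPM in sexual mycelium (−3.58, adjusted p = 9.9e-06).

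Copper-containing oxidases were more often higher. Of 20 laccases, tyrosinases and related genes 9 rose and 2 fell (median 1.21, and 12 and 2 with length offsets). The list took 0.106, 0.137 and 0.116% of all counts in protoapothecia against 0.111 and 0.108% in sexual mycelium. Copper amine oxidase 1 PCON_06028, which oxidises amines, had 226, 245 and 247 CPM in protoapothecia against 51.3 and 34.9 CPM in sexual mycelium (log2 fold change 2.47, SE 0.24, adjusted p = 2.86e-05). A second gene of that name, PCON_03241, had 10.1, 19.7 and 19.1 CPM in protoapothecia against 86 and 103.8 CPM in sexual mycelium (log2 fold change −2.56, SE 0.29, adjusted p = 7.28e-05). Laccase-2 PCON_10802, a phenol oxidase, rose to 16.6, 17.5 and 16.3 CPM in protoapothecia against 2.49 and 3.07 CPM in sexual mycelium (log2 fold change 2.59, SE 0.36, adjusted p = 0.000246). The copper transporter ctr4 PCON_11039 was at 1019, 569 and 916 CPM in protoapothecia against 72.4 and 101 CPM in sexual mycelium (3.26, adjusted p = 0.000354). All 3 genes called higher here were above both mycelium libraries in every protoapothecium library.

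Cell wall genes differed member by member. Chitin synthases, which spin the chitin of the wall, were followed one by one with their export chaperones and the vesicle protein Sec22. Chitin synthase G PCON_05667 had 8.61, 8.56 and 7.66 CPM in protoapothecia against 317 and 173 CPM in sexual mycelium (log2 fold change −4.89, SE 0.28, adjusted p = 3.68e-06; scaffold 218, 210900 to 214260, plus strand). Chitin synthase 6 PCON_06132 had 47.5, 79.1 and 39.3 CPM in protoapothecia against 530.5 and 324 CPM in sexual mycelium (−2.96, adjusted p = 7e-05), a fall of 1.70 with length offsets. Chitin synthase 2 PCON_05772 rose to 293, 182 and 280.0 CPM in protoapothecia against 52.2 and 40.7 CPM in sexual mycelium (log2 fold change 2.44, SE 0.28, adjusted p = 8.32e-05; scaffold 220, 77750 to 81823, minus strand). Its libraries and those of chitin synthase G did not overlap between the tissues, in opposite directions. The neighbour of chitin synthase 6, chitin synthase 8 PCON_06133, had 128, 106 and 198 CPM in protoapothecia against 205 and 179.9 CPM in sexual mycelium (−0.42, adjusted p = 0.201), and its value was 0.90 with length offsets. It passed the test, at −0.68, when protoapothecia C was left out. A second chitin synthase G, PCON_06635, had 499, 446 and 465 CPM in protoapothecia against 1056 and 647 CPM in sexual mycelium, with a log2 fold change of −0.86 (adjusted p = 0.0125) that became 0.05 with length offsets. Chitin synthase C models PCON_06662 and PCON_06619 had values of −1.27 and −0.87 (adjusted p = 0.0117 and 0.0187), which became −0.38 and −0.11 with length offsets. Without sexual mycelium 1 these C models and PCON_06635 no longer passed the test, at −1.05, −0.68 and −0.46. The D models PCON_04752 and PCON_08577 had log2 values of 0.23 and −0.13 that did not pass the test (adjusted p = 0.497 and 0.599). With length offsets they stood at 1.12 and 0.99. Over the list of 13 tested genes 3 rose and 6 fell, against 6 and 3 with length offsets.

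Of the export chaperones, PCON_06072 had 162, 142 and 125 CPM in protoapothecia against 49.3 and 46.7 CPM in sexual mycelium (log2 fold change 1.57, SE 0.21, adjusted p = 0.000186), and PCON_05046 had 68, 32.5 and 112 CPM in protoapothecia against 74 and 46.7 CPM in sexual mycelium (0.24, adjusted p = 0.653). Sec22 PCON_01265, a SNARE protein between endoplasmic reticulum and Golgi, had 25, 19.5 and 38 CPM in protoapothecia A, B and C, against 34.2 and 23.8 CPM in sexual mycelium 1 and 2, and its log2 fold change was −0.07 with an SE of 0.31 (adjusted p = 0.864). The groups overlapped for both Sec22 and PCON_05046. Of 12 mannoproteins, GPI wall proteins and hydrophobins 6 rose and 3 fell, the same counts as with length offsets. A CFEM domain protein PCON_13816, of a family of cysteine-rich surface proteins, had 936, 873 and 761 CPM in protoapothecia against 86.5 and 74 CPM in sexual mycelium (log2 fold change 3.42, SE 0.22, adjusted p = 4.55e-06). Beta-hexosaminidase PCON_11088, which trims chitin fragments, rose to 4797, 1875 and 4849.9 CPM in protoapothecia against 254 and 269 CPM in sexual mycelium (log2 fold change 3.87, SE 0.44, adjusted p = 7.82e-05). A glucan 1,3-beta-glucosidase PCON_14053 rose to 645, 1007 and 949 CPM in protoapothecia against 145 and 199 CPM in sexual mycelium (2.33, adjusted p = 0.000101). The endoglucanase PCON_07784 fell to 17.3, 23.3 and 71.6 CPM in protoapothecia against 432 and 609 CPM in sexual mycelium (−3.79, adjusted p = 0.000275).

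Actin genes were mostly lower, although both members named here of the Arp2/3 complex, which branches actin filaments, were higher. Of 31 members 5 rose and 17 fell (median −0.72), with length offsets 7 and 14. Arp2/3 subunit 2 PCON_02224 had 658, 638 and 991 CPM in protoapothecia against 133 and 127 CPM in sexual mycelium (log2 fold change 2.55, SE 0.26, adjusted p = 4.43e-05), and actin-related protein 2 PCON_13781 had 62.3, 62.9 and 65.4 CPM in protoapothecia against 22.7 and 19.3 CPM in sexual mycelium (1.60, adjusted p = 0.000359). Coronin PCON_02715, which turns filaments over, fell to 19.6, 25.5 and 15 CPM in protoapothecia against 341 and 286 CPM in sexual mycelium (log2 fold change −3.98, SE 0.25, adjusted p = 4.02e-06), and myosin-2 PCON_11606 fell to 6.92, 10.7 and 4.01 CPM in protoapothecia against 345 and 295 CPM in sexual mycelium (−5.53, adjusted p = 5.3e-06). Along microtubules, dynactin subunits 5 PCON_02073 and 6 PCON_13709, parts of the dynein activator, rose by 2.81 and 2.77 (adjusted p = 1.53e-05 and 3.24e-05), whereas gamma-tubulin PCON_02124, which nucleates microtubules, had 2.14, 1.92 and 0.692 CPM in protoapothecia against 35.9 and 32.4 CPM in sexual mycelium (log2 fold change −4.47, SE 0.43, adjusted p = 2.75e-05). The list of tubulins, dyneins and kinesins had 5 higher and 15 lower of 31 (10 and 14 with length offsets).

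Nuclear pore and nuclear division genes had 17 higher and 20 lower of 55, near the shares over all members tested, and 25 and 17 with length offsets. Centromere protein S PCON_06957 had 88.9, 76.6 and 83.7 CPM in protoapothecia against 11.9 and 11.6 CPM in sexual mycelium (log2 fold change 2.82, SE 0.23, adjusted p = 1.15e-05) and the kinetochore protein mis14 PCON_04050 102, 98.4 and 96.5 CPM in protoapothecia against 18.5 and 19.8 CPM in sexual mycelium (log2 fold change 2.37, SE 0.21, adjusted p = 1.98e-05), while the kinetochore protein spc7 PCON_10148 had 4.43, 3.21 and 2.08 CPM in protoapothecia against 78.5 and 70.02 CPM in sexual mycelium (log2 fold change −4.51, SE 0.31, adjusted p = 5.85e-06). Meiosis and sporulation genes had 10 higher and 20 lower of 45 (14 and 17 with length offsets). Chromosome segregation in meiosis protein 3 PCON_14261, a replication fork protein in yeast, rose to 161, 189.7 and 115 CPM in protoapothecia against 19.1 and 21.5 CPM in sexual mycelium (log2 fold change 2.94, SE 0.30, adjusted p = 4.05e-05). The meiotically up-regulated gene 113 homologue PCON_08869 fell to 2.04, 3.64 and 1.73 CPM in protoapothecia against 67 and 73.7 CPM in sexual mycelium (log2 fold change −4.94, SE 0.32, adjusted p = 4.28e-06).

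Genes for ankyrin repeat proteins and for proteins with a NACHT or HET domain were more often lower. Of 182 members with ankyrin repeats in Pfam 36 rose and 83 fell (43 and 70 with length offsets). WD40 domains had 33 higher and 34 lower of 106. Of 191 ankyrin, WD repeat, tetratricopeptide and NACHT proteins listed by description 33 rose and 97 fell (median −0.99), with length offsets 44 and 89. Of 30 genes annotated with a NACHT or HET domain, which in other fungi take part in the rejection of unlike strains, 2 rose and 22 fell (median −1.83), with length offsets 5 and 18. A HET-E-1 relative PCON_14268 had 0.249, 0.214 and 0.544 CPM in protoapothecia against 29.1 and 23.5 CPM in sexual mycelium (log2 fold change −6.14, SE 0.43, adjusted p = 6.03e-06). Another, PCON_14293, went the other way at 219, 369 and 331 CPM in protoapothecia against 74.9 and 75.2 CPM in sexual mycelium (log2 fold change 2.03, SE 0.27, adjusted p = 0.000187). An ankyrin repeat protein PCON_13686 had 1.24, 0.642 and 1.34 CPM in protoapothecia against 109.5 and 73.4 CPM in sexual mycelium (log2 fold change −6.28, SE 0.36, adjusted p = 3.6e-06). One described as ankyrin repeat and SOCS box protein 14, PCON_07807, had 327, 314 and 256 CPM in protoapothecia against 24.2 and 24.2 CPM in sexual mycelium (log2 fold change 3.63, SE 0.23, adjusted p = 4.02e-06). Shared descriptions in this family leave the division of reads between close copies uncertain.

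Across Pfam domains with at least 8 tested members, a few examples were picked after their values were seen and do not rank the domains. They stand beside 27.2% higher and 34.8% lower over all members tested, and were not computed with length offsets. Carboxylesterase domains had 8 of 15 members higher and 0 lower, and MARVEL domains, found in membrane-sorting proteins, 7 of 10 higher and 1 lower. SNARE domains, found in vesicle fusion proteins, had 5 of 11 higher and 0 lower. The second domain of elongation factor Tu type GTPases had 0 of 15 higher and 12 lower, and the Cpn60 and TCP-1 chaperonin domain 0 of 10 higher and 8 lower.

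Some neighbouring genes were called in the same direction. A run was at least 4 consecutive gene models called in one direction, each with a log2 change of at least 2. There were 7 higher runs, with 36 genes, and 28 lower runs, with 122 genes. Of all 11787 genes tested, 1601 were called higher by at least 4-fold and 2486 lower by at least 4-fold. How many runs those shares alone would give was not tested. The number of higher runs was 12 with RLE scaling, with DESeq2 and with length offsets. The longest higher run held 7 genes on scaffold 604 from 42591 to 62834. A pair of ent-kaurene oxidases, P450 enzymes of gibberellin synthesis in plants and fungi, opened it: PCON_11420 had 63.8, 171 and 201 CPM in protoapothecia against 5.08 and 5.74 CPM in sexual mycelium (log2 fold change 4.74, SE 0.50, adjusted p = 5.22e-05), and PCON_11421 had 29.5, 60.7 and 98.1 CPM in protoapothecia against 3.88 and 4.46 CPM in sexual mycelium (log2 fold change 3.91, SE 0.49, adjusted p = 0.000131). The next genes were a solanapyrone synthase relative PCON_11422, an oxidative enzyme of a polyketide route in Alternaria, at 12.7, 18.8 and 36.9 CPM in protoapothecia against 4.84 and 5.62 CPM in sexual mycelium (2.13, adjusted p = 0.00216), and an aldehyde reductase PCON_11423 at 127, 339.6 and 265 CPM in protoapothecia against 17.2 and 26.4 CPM in sexual mycelium (3.48, adjusted p = 0.000156). The last 3, PCON_11424 to PCON_11426, have no described product and rose by 3.60, 3.36 and 3.25. Every gene of the run was above both mycelium libraries in each protoapothecium library.

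A higher run of 5 genes, tied with others of that number, lay on scaffold 189 from 54335 to 67773. Its PN-AMP1-like antimicrobial protein PCON_05009, named after a plant chitin-binding peptide, had 2806, 9631 and 3279 CPM in protoapothecia against 129 and 254 CPM in sexual mycelium (log2 fold change 4.77, SE 0.66, adjusted p = 0.000239), with B above A and C. The undescribed PCON_05008 beside it had 2657, 3661 and 2453 CPM in protoapothecia against 97.5 and 103 CPM in sexual mycelium (log2 fold change 4.87, SE 0.29, adjusted p = 3.68e-06), the tyrosinase PCON_05010 18.6, 67.6 and 55.9 CPM in protoapothecia against 2.73 and 4.46 CPM in sexual mycelium (3.71, adjusted p = 0.000737) and lipase 3 PCON_05011 131, 165 and 148 CPM in protoapothecia against 18.9 and 18.3 CPM in sexual mycelium (2.99, adjusted p = 7.97e-06). The second run, on scaffold 178 from 148878 to 164803, held a proteasome component PRE4 PCON_04871 at 2.28, a nicotinamide N-methyltransferase PCON_04873 at 3.42 and 4 undescribed genes between 2.15 and 4.01 on the log2 scale. Agmatinase PCON_06951 was the first gene of a run of 4 on scaffold 294 from 261041 to 269483, with a pair of uncharacterised transporters beside it, PCON_06952 at 3.80 and PCON_06953 at 2.31. PCON_06953 overlaps the last model of the run, PCON_06954, so its counts are uncertain.

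**Figure D4:**
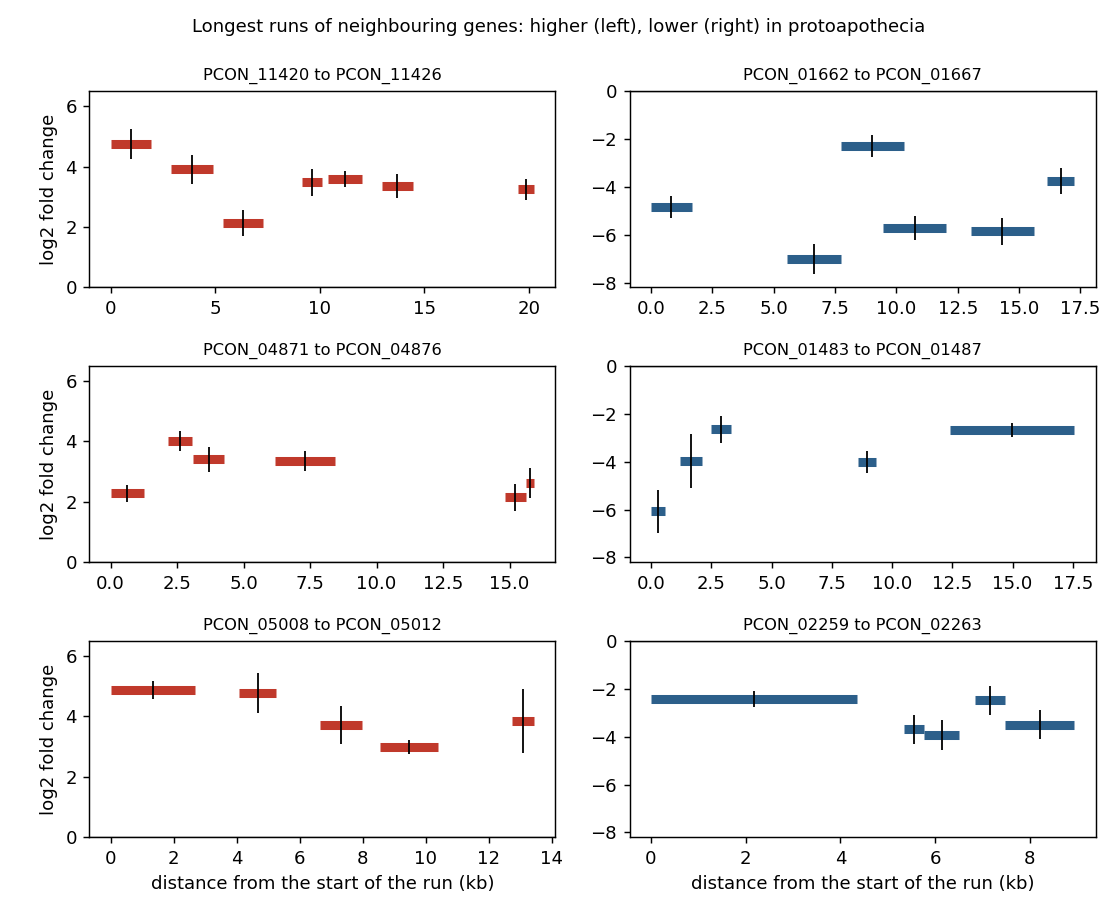
Log2 fold change (y axis) of the genes in the 3 longest higher runs (left) and lower runs (right) against distance from the start of the run in kb (x axis), bars spanning each gene model and black lines showing plus and minus 1 SE. All genes of the first higher run lie between 2.13 and 4.74.

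The lower runs were mostly of undescribed genes. The longest held 6 on scaffold 1117 from 259322 to 276579, among which PCON_01663 had 0.0996, 0 and 0.148 CPM in protoapothecia against 19.6 and 9.97 CPM in sexual mycelium (−7.00, adjusted p = 1.97e-05) and PCON_01666 had 0.598, 0.428 and 0.247 CPM in protoapothecia against 31.6 and 18.3 CPM in sexual mycelium (−5.86, adjusted p = 3.22e-05). A pair of its models, PCON_01664 and PCON_01665, overlap each other, and their counts are uncertain. Several lower runs held 5 genes, among them a run on scaffold 1094 with advillin PCON_01487, an actin-binding protein in animals. Advillin had 34.4, 26.3 and 17.8 CPM in protoapothecia against 173 and 163 CPM in sexual mycelium (−2.68, adjusted p = 4.9e-05), a fall of 1.54 with length offsets. One run of 4 joined enolase PCON_11324, pyruvate carboxylase PCON_11325 and clathrin heavy chain PCON_11326, which fell by 4.66, 3.78 and 3.64.

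Protoapothecium replicates varied more than the sexual mycelium libraries. Among members of at least 20 CPM in the group, the highest library was a median of 1.68 times the lowest in protoapothecia (5629 genes, 3 libraries) and 1.17 times in sexual mycelium (6083 genes, 2 libraries, which may be technical). A ratio over 4 was found for 318 protoapothecium genes, with C highest in 188 of them, and for 12 genes of sexual mycelium. In 85 genes protoapothecia C was at least 4-fold above both A and B, against 9 for A alone and 5 for B alone. Of the 85, 19 were called higher, 15 lower and 51 not called against sexual mycelium. In 49 genes B was at least 4-fold below both others.

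The genes high in C, named here after their values were seen, included some called after light or spore responses in Neurospora. Conidiation-specific protein 10 PCON_08706 had 1.69, 0.642 and 91.8 CPM in protoapothecia A, B and C, against 0.336 and 1.84 CPM in sexual mycelium 1 and 2. Bli-3 PCON_05054 and bli-4 PCON_11509, named for blue-light induction in Neurospora, had 12.5, 8.13 and 269.8 CPM in protoapothecia against 4.99 and 19.8 CPM in sexual mycelium for bli-3 and 3.68, 1.28 and 129.6 CPM in protoapothecia against 3.02 and 4.91 CPM in sexual mycelium for bli-4. In all 3 genes A and B were within the range of the mycelium or near it and C stood apart. A malic acid transport protein PCON_01204 had 5.48, 10.5 and 548 CPM in protoapothecia against 9.11 and 23.1 CPM in sexual mycelium. None of these 4 passed the test against sexual mycelium. The mitochondrial malic enzyme PCON_09068 did (log2 fold change 4.14, SE 1.47, adjusted p = 0.0348), on 2.24, 2.14 and 64 CPM in protoapothecia against 1.1 and 1.5 CPM in sexual mycelium. The cell wall mannoprotein CIS3 PCON_07292 had 0.498, 19 and 131 CPM in protoapothecia against 404 and 868 CPM in sexual mycelium and also passed (log2 fold change −3.65, SE 1.33, adjusted p = 0.0381). Without C the value of PCON_09068 was 0.78 and did not pass, and that of PCON_07292 was −6.22. Both calls were also lost when either sexual mycelium library was left out, at 3.94 and 4.38 for PCON_09068 and −4.10 and −3.0 for PCON_07292, and PCON_07292 was not called without protoapothecia B, at −3.26. The other markers of asexual sporulation did not reach such levels in C alone. Conidiation-specific protein 6 genes were highest in C but low in all protoapothecium libraries. PCON_11571 had 0, 0 and 0.148 CPM in A, B and C, and PCON_11572 had 0.0498, 0 and 0.148 CPM. PCON_11576 had 1.2, 1.07 and 2.82 CPM. The regulator wetA PCON_02676 had 1153, 1208 and 1245 CPM in A, B and C, and abaA PCON_12773 had 56.4, 12.6 and 34.3 CPM. What sets C apart was not tested.

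**Figure D5:**
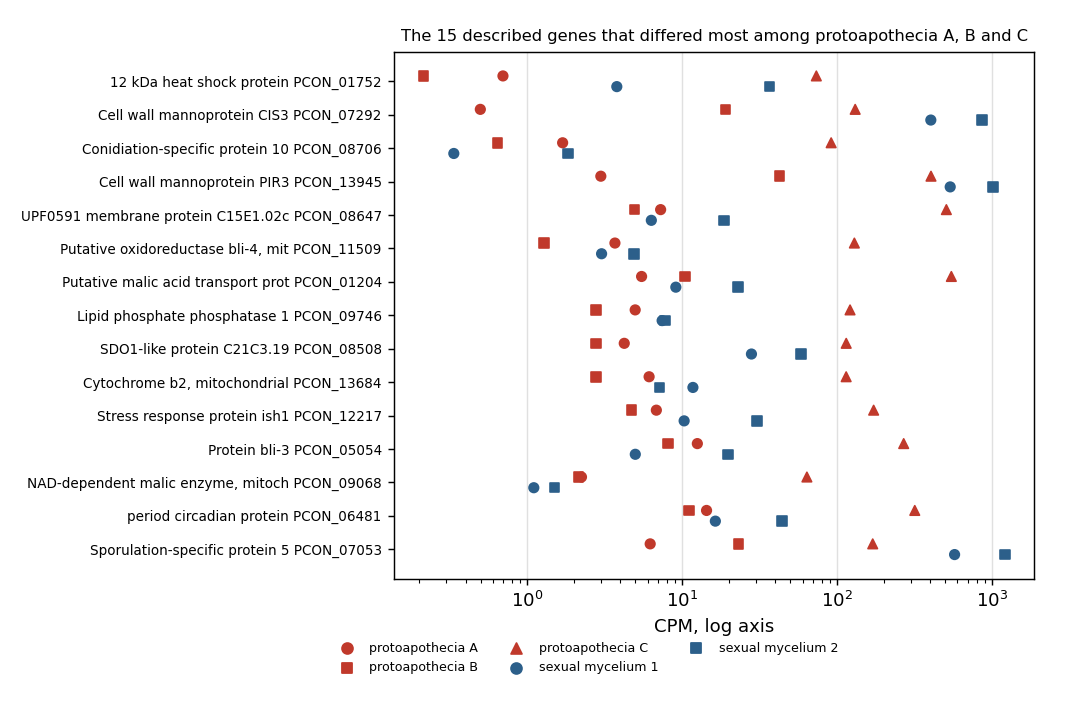
CPM (x axis, log scale) of the 15 described genes with the widest ratio among protoapothecium libraries, protoapothecia in red above sexual mycelium in blue. Protoapothecia C (triangles) is the highest protoapothecium library in all 15.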

How the data were processed

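RNA sequencing counts per gene model were deposited by the authors for 9 libraries in 4 groups, as whole-number counts with no normalization, and 0 columns lay outside those libraries. CASAVA 1.8.2 and DESeq are named per the submitters' processing notes. Which aligner, counting program, genome build and strand setting were used is not given in the sources used here. Gene positions refer to scaffolds, as deposited. The authors' calls are deposited as a score of −1, 0 or 1, and their fold values as ratio columns of protoapothecia over sexual mycelium.

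Counts were tested with edgeR 4.0.16 (R 4.3.3) by the quasi-likelihood test with TMM scaling and robust dispersions, over all 4 groups with 5 residual degrees of freedom. Genes were kept by the filter of edgeR at a minimum count of 10 and a minimum total of 15, and Benjamini-Hochberg adjustment ran over every gene in the fit. The 2-fold test used a log2 threshold of 1. The fit was tested on simulated data in which 200 of 11787 genes were changed, 50 at each fold. It recovered 6% of 2-fold, 54% of 4-fold, 92% of 8-fold and 100% of 16-fold changes there. In the data 62% of members tested were called, so the Benjamini-Hochberg cut-off was less strict than in the simulation. Those shares are therefore not the sensitivity of this contrast. A gene that was not called may still differ. DESeq2 1.42.0, other scalings and filters, thinning, leaving out each library and, chosen after seeing the data, library offsets fitted to mRNA length with a span of 0.3 were alternatives. Total counts per library were 5583951 to 24803660 in the groups compared. Floors are 3 counts and cover counting error only.

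Members and gene lists were chosen with earlier results of these data known, and Pfam lists were added once the table had been read and before fold changes were computed. The text names up to 3 called genes per list and direction with the smallest p, the 15 largest and 15 smallest fold changes of described genes and the 10 of undescribed genes, the 10 most abundant genes per kb in each group, the members of the 3 longest runs each way, and every chitin synthase, its export chaperone and Sec22. Genes outside this rule are markers, members of further runs and genes that differ among replicates. A few genes that this rule also names are not reported here.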

Additional observations from a re-analysis of the deposited data

How the results depend on the processing

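Preparation and tissue cannot be told apart, and the sexual mycelium libraries may be technical repeats. No gene was called in opposite directions under any alternative in scaling, filter, tool, depth or library, against 9 genes with length offsets. The counts over all 11787 genes tested, 3146 higher and 4071 lower, became 3520 and 3749 with RLE scaling, 3682 and 3728 with DESeq2, 2965 and 4293 with upper-quartile scaling, and 2678 and 3447 when every library was thinned to the shallowest total. Leaving out 1 library gave 2227 to 3521 higher and 3216 to 4018 lower, and the 2-fold test gave 1343 to 2182 higher and 2244 to 2790 lower. The share of calls that were higher ranged from 39.6 to 51.4%, against 43.6% with TMM scaling. The highest share came with length offsets, which gave 3765 higher and 3560 lower. With those offsets, 6 of the 463 genes named by the rule turned: PCON_06133 to 0.90, PCON_06635 to 0.047, PCON_07777 to 0.18, PCON_08577 to 0.99, PCON_13056 to 0.59 and PCON_13884 to 0.18. Without sexual mycelium 1, 36 of the 463 no longer passed the test, and without sexual mycelium 2, 27. The cause of these changes was not tested. Protoapothecia B had the fewest counts, so genes of low level are least certain there. No paired analysis was possible, because the sexual mycelium libraries came from an earlier study and no unit shared with the protoapothecia is labelled.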
